A study of Oryza sativa with 6 samples.

Results

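The genes described here encode 10 enzymes that make or inactivate gibberellins in rice: CPS1, KS1, KO2 (also called D35), KAO, GA20ox1, GA20ox2 (SD1), GA3ox2 (D18), GA2ox3, GA2ox6 and EUI1. They were chosen by locus identifier, and all 10 were found among the 55986 rows of the deposited count table. RNA was sequenced from leaves of 4-week-old Oryza sativa ssp. japonica plants of 2 lines, with 3 libraries each. Balilla-4x is an artificial tetraploid with 48 chromosomes, made by doubling the genome of Balilla-2x, and Balilla-2x is the diploid parent with 24 chromosomes, an Italian variety with poor seed set. Both lines grew in a paddy field in Shanghai under conditions labelled normal, and no other agent or allele is given for either. The labels do not say whether the tetraploid goes back to 1 doubled plant or whether the libraries of a line came from separate plants, so each p-value reflects only how much these libraries vary, part of which may be technical.

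Gibberellins are diterpenoid hormones that promote stem and leaf elongation. Plastid terpene cyclases make the hydrocarbon skeleton, cytochrome P450 enzymes oxidise it to the first gibberellin, and soluble dioxygenases, the GA20ox and GA3ox families, turn that into the bioactive forms. GA2ox dioxygenases and the P450 enzyme EUI1 inactivate gibberellins. In rice, loss of KO2, GA20ox2 or GA3ox2 gives dwarf or semi-dwarf plants, and loss of EUI1 gives a long uppermost internode. Active gibberellin is known to lower transcripts of GA20ox and GA3ox genes and to raise those of GA2ox genes. The series' title names plant height and yield as its subject, and its design sets the tetraploid against its diploid parent.

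Library totals ran from 16738447 to 17078688 counts in Balilla-4x and from 17147985 to 18106962 in Balilla-2x, so that 3 counts equal 0.166 to 0.179 CPM (counts scaled to library size). The first principal component of log2 CPM (74.4% of the variance) separated the lines, and the second (8.64%) set Balilla-4x replicate 1 off from its fellow replicates. Where leaving it out moved a member's value or call, the value without it is given. A list of 6 photosynthesis loci that marks green leaf tissue summed to 9218 to 12689 CPM in Balilla-4x and to 5864 to 7127 CPM in Balilla-2x, and 3 of the 6 were higher and 1 lower in the tetraploid. Of 4 meristem homeobox loci, 3 had 0 counts in every library and the other had 5 counts in the tetraploid, against 0 in the diploid. The 5 floral organ loci summed to 5.02 to 6.04 CPM in Balilla-4x and to 4.08 to 8.74 CPM in Balilla-2x, and 0 of the 2 that were tested changed (edgeR quasi-likelihood test; 0 also at an unadjusted p under 0.05 and with DESeq2). These 3 lists were filled from general knowledge of rice loci.

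Of the 7 synthesis genes, 4 were higher in the tetraploid, and the 3 inactivation genes did not pass the test in either direction. CPS1, KAO, GA20ox1 and GA20ox2 rose in Balilla-4x, with fold changes of 5.78, 2.28, 5.07 and 1.98 (edgeR quasi-likelihood test, adjusted p under 0.05 over all tested genes). They are 4 of the 10 members, and 0 members were lower (0 also with DESeq2, and 1, GA2ox3, at an unadjusted p under 0.05), where 26.1% of all 20976 tested genes changed, 12.4% higher and 13.7% lower. The 4 include CPS1, which reached the test only through Balilla-4x, where it is high, so its call adds no support to this count. KS1 and KO2 were fitted at 1.28-fold and 1.46-fold higher without passing the threshold, GA2ox3 at 0.42-fold and GA2ox6 at 0.67-fold, and EUI1 at 1.24-fold. GA3ox2 had too few counts for a test. The count of changed members was 1 without Balilla-2x replicate 3 and 2 without Balilla-4x replicate 2 or without Balilla-4x replicate 3. The libraries of the lines did not overlap for 6 members, 5 of them higher and GA2ox3 lower in Balilla-4x, against 44.3% of all tested genes (21.6% higher, 22.6% lower). The median log2 fold change was 0.55 over the 9 members tested and 0.01 over all tested genes, a description that includes CPS1, which passed the filter on low counts only through Balilla-4x.

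**Figure D1:**
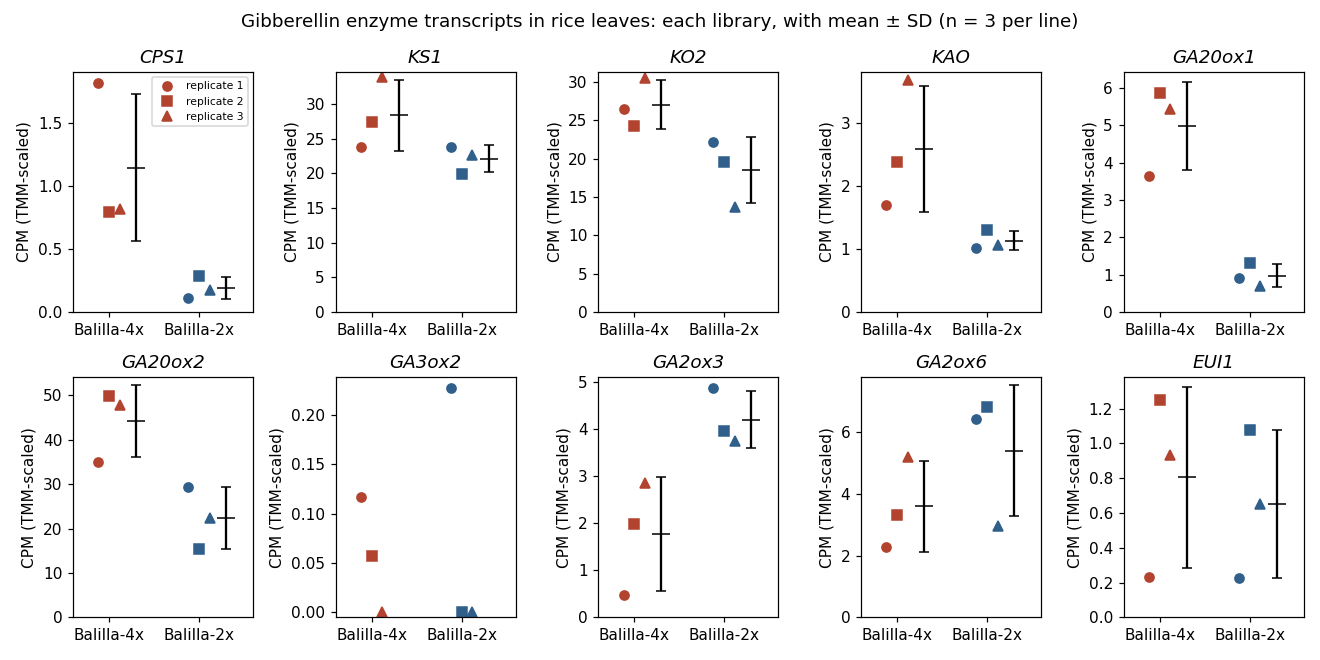
Transcript level of each of the 10 genes in CPM (vertical axis of each panel, from 0), by line and library, with the mean and SD of 3 libraries in black where counts allow. The Balilla-4x libraries lie above all Balilla-2x libraries for CPS1, KO2, KAO, GA20ox1 and GA20ox2, and below them for GA2ox3.

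The early steps run from CPS1 to KAO. CPS1, ent-copalyl diphosphate synthase, carries out the first committed cyclisation and was low in both lines and nearly silent in the diploid. Its mean was 1.14 CPM in Balilla-4x, against 0.19 CPM in Balilla-2x, and only 2.4% of tested genes had a lower level over all libraries. The gene (LOC_Os02g17780, chromosome 2) had 31, 14 and 14 counts in Balilla-4x replicates 1 to 3, against 2, 5 and 3 counts in Balilla-2x. The lines did not overlap, but Balilla-4x replicate 1 held more than the other two Balilla-4x libraries together. CPS1 reached the filter on low counts in 3 Balilla-4x libraries and in 0 Balilla-2x libraries. It was therefore tested only through the line where it is high, and its p-values are a description. The fitted log2 fold change was 2.53 ± 0.58 (SE; 95% interval 1.20 to 3.86; edgeR adjusted p = 0.0147). Without Balilla-4x replicate 1 it was 2.03 (adjusted p = 0.0392), and the call was lost without Balilla-2x replicate 1 (adjusted p = 0.0537) or replicate 3 (adjusted p = 0.0594). With all genes kept in place of the filter, CPS1 still passed (adjusted p = 0.0181), while on the log2(FPKM + 1) scale it came to 0.38 (limma adjusted p = 0.0692), since adding 1 shrinks the change of a gene at this level.

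KS1 (LOC_Os04g52230, chromosome 4), ent-kaurene synthase, takes the product of CPS1 and was among the more abundant of the set. Its level was 23.7, 27.4 and 33.9 CPM in Balilla-4x, against 23.8, 19.9 and 22.7 CPM in Balilla-2x. Balilla-4x replicate 1 lay within the diploid's range and the other two lay above it. The log2 fold change of 0.36 ± 0.15 (SE; 95% interval 0.02 to 0.70) had an adjusted p of 0.110 in edgeR, and only leaving out Balilla-4x replicate 1 brought it under the threshold among the settings run, at 0.47 (adjusted p = 0.0334).

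KO2 (LOC_Os06g37364, chromosome 6), the P450 enzyme ent-kaurene oxidase, sat at the threshold. It measured 26.4, 24.2 and 30.5 CPM in Balilla-4x, against 22.2, 19.6 and 13.8 CPM in Balilla-2x. Every Balilla-4x library was above every Balilla-2x library, and Balilla-2x replicate 3 was the lowest. The log2 fold change was 0.55 ± 0.18 (SE; 95% interval 0.14 to 0.95; edgeR adjusted p = 0.0541). It passed in 6 of 13 alternatives, among them DESeq2 (adjusted p = 0.0296), library totals in place of TMM scaling (0.0346) and leaving out Balilla-2x replicate 1 (0.0379). Leaving out Balilla-4x replicate 1 gave 0.56 (edgeR adjusted p = 0.0647).

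KAO (LOC_Os06g02019, chromosome 6), ent-kaurenoic acid oxidase, completes the P450 steps and yields the first gibberellin. Counts were 29, 42 and 63 in Balilla-4x, against 18, 23 and 18 in Balilla-2x. The lines did not overlap, and the tetraploid's libraries spread more widely than the diploid's. The log2 fold change was 1.19 ± 0.38 (SE; 95% interval 0.33 to 2.05; edgeR adjusted p = 0.0482). This call is a narrow one: it was lost with no filter (0.0535) and without each of Balilla-2x replicates 1, 2 and 3 (0.121, 0.0864 and 0.131) or Balilla-4x replicates 2 and 3 (0.103 and 0.186). Without Balilla-4x replicate 1 it was stronger, at 1.41 (adjusted p = 0.0218).

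The GA20ox genes encode gibberellin 20-oxidases, which carry out the consecutive oxidations before the final activating step, and GA20ox1 had the lowest adjusted p of the set. GA20ox1 (LOC_Os03g63970, chromosome 3) was at 3.63, 5.86 and 5.43 CPM in Balilla-4x, against 0.91, 1.30 and 0.71 CPM in Balilla-2x. The lowest tetraploid library was above the highest diploid one by more than the whole diploid range. Its log2 fold change was 2.34 ± 0.34 (SE; 95% interval 1.56 to 3.12; edgeR adjusted p = 0.00202), and it was the only member that passed in all 13 alternatives run, with adjusted p no higher than 0.0134. On the log2(FPKM + 1) scale the value was 1.29. Leaving out Balilla-4x replicate 1 gave 2.52 (edgeR adjusted p = 0.00096).

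GA20ox2 (LOC_Os01g66100, chromosome 1) is the gene whose loss gives the semi-dwarf habit of many modern rice varieties. It was the member with the highest level per length, and it measured 35.0, 49.8 and 47.8 CPM in Balilla-4x, against 29.2, 15.3 and 22.3 CPM in Balilla-2x. The lines did not overlap, though Balilla-4x replicate 1 and Balilla-2x replicate 1 came close to each other. The log2 fold change was 0.99 ± 0.23 (SE; 95% interval 0.47 to 1.51; edgeR adjusted p = 0.0148). The call was lost, with adjusted p from 0.0503 to 0.0575, without Balilla-2x replicate 3, Balilla-4x replicate 2 or Balilla-4x replicate 3. Leaving out Balilla-4x replicate 1 gave 1.13 (edgeR adjusted p = 0.0055).

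Because both genes encode the same step, their balance was compared within each library. The log2 ratio of GA20ox2 to GA20ox1 counts was 3.16 ± 0.09 in Balilla-4x, against 4.47 ± 0.82 in Balilla-2x (mean ± SD of n = 3 libraries), and all Balilla-4x libraries were below all Balilla-2x libraries. The difference of -1.31 had an exact two-sided permutation p of 0.1, the smallest that 3 against 3 can give, and 0.2 after Benjamini-Hochberg adjustment over the 2 ratios compared. Per length, in FPKM, GA20ox1 supplied 8.54% ± 0.50 of the summed level of both genes in Balilla-4x and 3.93% ± 2.36 in Balilla-2x (mean ± SD of n = 3 libraries). Without Balilla-2x replicate 2 the Balilla-2x mean was 2.57%.

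GA3ox2 (LOC_Os01g08220, chromosome 1), the gibberellin 3-oxidase that makes the bioactive forms in vegetative tissue, was barely read. It had 2, 1 and 0 counts in Balilla-4x, against 4, 0 and 0 counts in Balilla-2x. That is 3 counts in all for Balilla-4x and 4 for Balilla-2x, those of Balilla-2x in 1 library, so a difference in this step was not detectable at this depth.

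**Figure D2:**
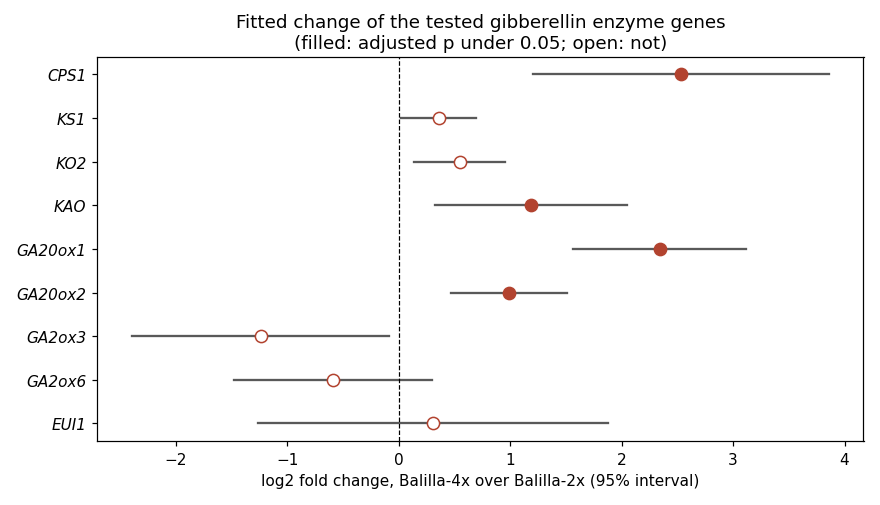
Fitted log2 fold change of Balilla-4x over Balilla-2x (horizontal axis) with its 95% interval for the 9 tested genes, filled where the adjusted p is under 0.05. The 6 synthesis genes, from CPS1 to GA20ox2, lie right of 0, from 0.36 to 2.53, and GA2ox3 and GA2ox6 lie left of it, at -1.24 and -0.59.

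None of the 3 inactivation genes passed the test. GA2ox3 (LOC_Os01g55240, chromosome 1), a gibberellin 2-oxidase, had 8, 35 and 49 counts in Balilla-4x, against 86, 70 and 63 counts in Balilla-2x. Every tetraploid library was below every diploid library, and Balilla-4x replicate 1 was far below the other two. The log2 fold change was -1.24 ± 0.51 (SE; 95% interval -2.39 to -0.08; edgeR adjusted p = 0.106). Without Balilla-4x replicate 1 it was -0.79 (adjusted p = 0.0836). Over the 13 alternatives the adjusted p ran from 0.0527 (DESeq2) to 0.223, and the value was below 0 in each.

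GA2ox6 (LOC_Os04g44150, chromosome 4), another gibberellin 2-oxidase, had 2.29, 3.30 and 5.20 CPM in Balilla-4x, against 6.41, 6.79 and 2.97 CPM in Balilla-2x. The lines overlapped through Balilla-2x replicate 3, which lay below 2 tetraploid libraries. The log2 fold change was -0.59 ± 0.39 (SE; 95% interval -1.47 to 0.30; edgeR adjusted p = 0.301). The log2 ratio of GA2ox6 to GA2ox3 counts was 1.26 ± 0.83 in Balilla-4x, against 0.28 ± 0.56 in Balilla-2x (mean ± SD of n = 3 libraries; difference 0.99; exact two-sided permutation p = 0.2). Without Balilla-4x replicate 1, whose ratio was 2.22 against 0.72 and 0.85 in the other two Balilla-4x libraries, the difference was 0.51, and the log2 fold change of GA2ox6 was -0.35 (edgeR adjusted p = 0.530).

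EUI1 (LOC_Os05g40384, chromosome 5), a P450 enzyme that inactivates gibberellins by epoxidation, was read at low counts, with 4, 22 and 16 in Balilla-4x, against 4, 19 and 11 in Balilla-2x. Replicate 1 of each line was the lowest and the lines overlapped throughout. The 95% interval of its log2 fold change, -1.26 to 1.88 around 0.31, leaves both a 2-fold rise and a 2-fold fall possible (edgeR adjusted p = 0.773). The fitted value was 0.74 without Balilla-4x replicate 1 (adjusted p = 0.409), and its sign turned without Balilla-2x replicate 1 (-0.10) or Balilla-4x replicate 2 (-0.14).

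Per length, GA20ox2 had the highest level of the set in both lines, at 29.1 ± 5.38 FPKM in Balilla-4x, against 14.1 ± 4.35 FPKM in Balilla-2x (mean ± SD of n = 3 libraries). KO2 came next with 13.7 ± 1.38 FPKM in Balilla-4x, against 8.99 ± 2.06 FPKM in Balilla-2x. KS1 followed with 9.87 ± 1.69 FPKM in Balilla-4x, against 7.40 ± 0.65 FPKM in Balilla-2x. In Balilla-4x the libraries of these 3 genes did not overlap, while in Balilla-2x GA20ox2 overlapped with KO2 and KO2 with KS1. All other members averaged under 4 FPKM. Among them the order differed between the lines: GA20ox1 had rank 4 in Balilla-4x at 2.74 ± 0.66 FPKM and rank 7 in Balilla-2x at 0.51 ± 0.16 FPKM, where it overlapped with KAO. GA2ox6 and GA2ox3 had ranks 4 and 5 in Balilla-2x, at 3.70 ± 1.44 and 2.34 ± 0.33 FPKM, and overlapped with each other. In Balilla-4x the neighbours in the order from GA20ox1 down to CPS1 all overlapped.

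Summed by class, FPKM of the 4 early enzymes was 25.3 ± 3.21 in Balilla-4x, against 17.0 ± 2.13 in Balilla-2x (mean ± SD of n = 3 libraries). KS1 and KO2, which did not pass the test, made up 92.5% to 93.4% of that sum in Balilla-4x, against 95.6% to 97.1% in Balilla-2x. For the 3 activating dioxygenases the sum was 31.8 ± 5.998 in Balilla-4x, against 14.6 ± 4.33 in Balilla-2x, nearly all of it GA20ox2. The 3 inactivating enzymes summed to 4.00 ± 1.87 FPKM in Balilla-4x, against 6.36 ± 1.64 FPKM in Balilla-2x, and here the lines overlapped. Synthesis over inactivation was 23.8, 14.3 and 10.9 in the Balilla-4x libraries, against 5.30, 3.69 and 6.60 in Balilla-2x. The highest value was that of Balilla-4x replicate 1, and without it the Balilla-4x mean was 12.6 rather than 16.4. These sums describe transcripts of different enzymes and are given with no test. FPKM is scaled to library totals rather than by TMM, which lifts levels and sums in Balilla-4x slightly and leaves ratios within a library unchanged. The median log2 fold change over all tested genes was 0.07 with library totals, against 0.01 with TMM. All sums cover the members alone, so the balance over all loci of the pathway is not given. Of 9 other tested loci of gibberellin metabolism and perception, listed below, 4 were higher and 1 lower in Balilla-4x. The largest rise among them was that of LOC_Os02g41954 (log2 fold change 2.29). It had 9.73, 25.7 and 17.4 CPM in Balilla-4x, against 1.82, 4.98 and 3.97 CPM in Balilla-2x. In each Balilla-4x library that was above GA2ox3, GA2ox6 and EUI1. Which of these other loci make or inactivate gibberellins is not given here. The inactivation sum and the ratio could therefore read otherwise, even in direction, with such loci counted.

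**Figure D3:**
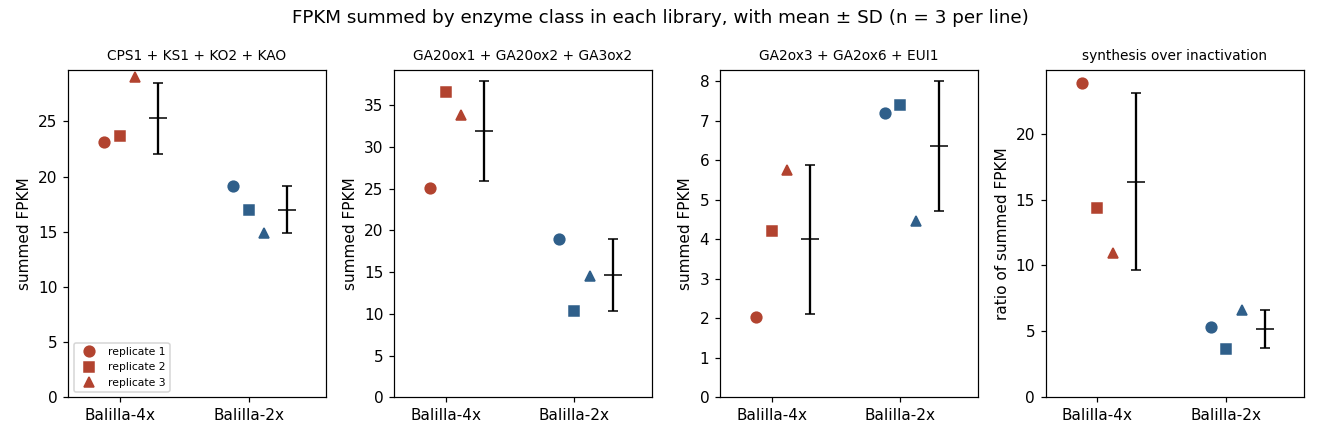
FPKM summed over the early enzymes, the activating dioxygenases and the inactivating enzymes, and the ratio of synthesis to inactivation (vertical axes, from 0), for each library with the mean and SD of 3 libraries per line. The lines stand apart in the early sum, the dioxygenase sum and the ratio, and overlap in the inactivation sum. All sums cover the members alone.

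Several measured facts move with these differences, and their part in them was not tested. Genes of low level were shifted upward in Balilla-4x as a class: in the lowest of 5 equal classes of tested genes by level (up to 3.00 CPM), which holds CPS1, KAO, GA20ox1, GA2ox3 and EUI1, the median log2 fold change was 0.34, and 13.8% were called higher and 6.17% lower. CPS1, KAO and GA20ox1 lay above that median, and EUI1 (0.31) and GA2ox3 (-1.24) lay below it. GA20ox2 is in class 4 (25.3 to 58.4 CPM), where the median was -0.07, and 10.2% were called higher and 17.8% lower. The summed level of the photosynthesis loci, given above, was also higher in Balilla-4x, though 3 of the 6 were called higher and 1 lower. In bulk leaf RNA, fewer cells that express a gene and less RNA per cell cannot be told apart, and since counts are shares of each library's RNA, a change in RNA per cell is not measured. Scaling also moves the balance over all genes, from 2598 higher and 2883 lower with TMM to 3092 higher and 2306 lower with library totals. With library totals, 5 members were higher and 0 lower.

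The genes lie on 6 chromosomes, and each was set beside the 5 nearest tested loci on either side in locus order. Of these 90 loci, 25 (27.8%) changed, 16 higher and 9 lower, against 26.1% of all tested genes, and their median log2 fold change was -0.0037. Among the 90, 13 (14.4%) were called with a 2-fold difference or more, 11 of them upward and 2 downward. For all tested genes the share was 11.7% in either direction. That share was not split by direction, so the 11 against 2 has no background to be read against. Both the 11 and the 16 include LOC_Os02g17750 and LOC_Os06g37340. These passed the filter on low counts only through Balilla-4x, so their calls add no support to either count. The 25 calls came down to 16, 12 and 15 without Balilla-2x replicates 1, 2 and 3, and to 13 and 14 without Balilla-4x replicates 2 and 3. Around GA20ox1 2 of 10 neighbours were called, and around GA20ox2 4 of 10. Beside CPS1, LOC_Os02g17750 was higher (log2 fold change 3.32 ± 0.43, SE; edgeR adjusted p = 0.00123) and LOC_Os02g17760, its nearest tested locus, was lower (-1.40 ± 0.21; adjusted p = 0.00210). LOC_Os02g17750 had 117, 52 and 90 counts in Balilla-4x, against 8, 12 and 6 in Balilla-2x. It passed the filter on low counts only through Balilla-4x, where it is high, so its call is a description. Next to KS1, LOC_Os04g52260 was higher (3.52 ± 0.55; adjusted p = 0.00274). The other neighbours changed at least 2-fold were LOC_Os02g17710 near CPS1 (log2 fold change 1.11), LOC_Os04g52164 and LOC_Os04g52180 near KS1 (1.36 and 1.15) and LOC_Os06g01934 near KAO (1.31). They further include LOC_Os03g64030 near GA20ox1 (1.81), LOC_Os04g44180 and LOC_Os04g44250 near GA2ox6 (1.03 and 1.53), LOC_Os05g40720 near EUI1 (1.11) and, lower, LOC_Os06g37450 near KO2 (-1.32).

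**Figure D4:**
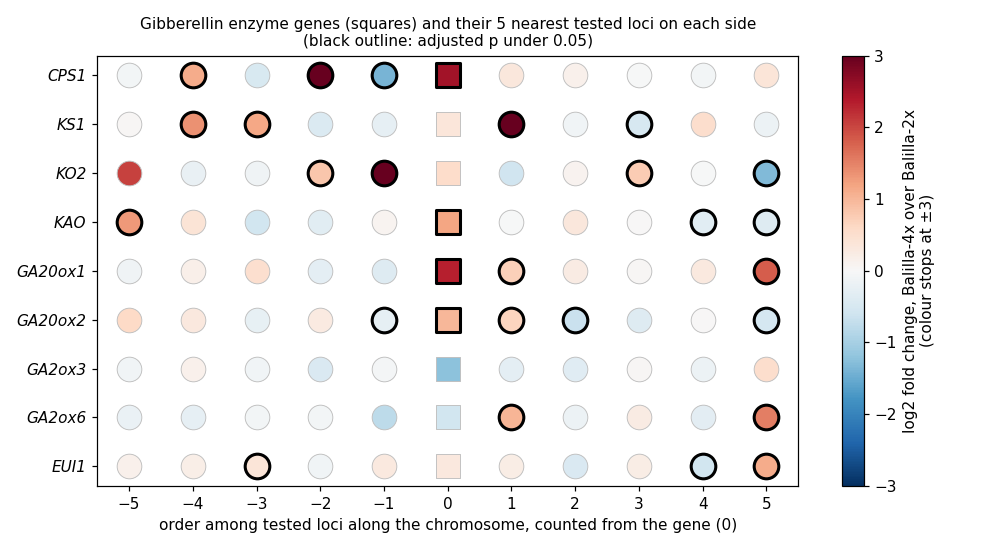
The 9 tested genes (squares at 0) and their 5 nearest tested loci on each side (circles), placed by order along the chromosome and coloured by log2 fold change of Balilla-4x over Balilla-2x, with a black outline where the adjusted p is under 0.05. Called loci of both directions are scattered along the rows, 16 higher and 9 lower, and the locus just before KO2 exceeds the colour scale.

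The stretch around KO2 on chromosome 6 held the largest difference among these neighbours. LOC_Os06g37340, the tested locus next to KO2, had 204, 148 and 199 counts in Balilla-4x, against 1, 0 and 0 counts in Balilla-2x. The ratio of Balilla-4x to Balilla-2x was 555, with an exact 95% interval for counting error of 99.2 to 21956 (edgeR adjusted p = 1.55e-05). It passed the filter on low counts only through Balilla-4x, where it is high, so it had to differ. LOC_Os06g37300, 2 tested loci from KO2, was higher at 288, 491 and 324 counts in Balilla-4x, against 282, 196 and 143 in Balilla-2x (log2 fold change 0.84 ± 0.26, SE; edgeR adjusted p = 0.0439). LOC_Os06g37224 in the same stretch was read mainly in the diploid, with 2, 3 and 0 counts in Balilla-4x, against 10, 22 and 51 in Balilla-2x, and was too low to be tested with all 6 libraries. It is named here after its values were seen. How the authors' counting assigned reads shared by similar or overlapping loci is not given in the sources used here, so KO2 and these neighbours are uncertain to that extent, and whether they share reads was not tested.

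Other loci of gibberellin metabolism and perception were set beside the members from a list of 18, filled from general knowledge because the files pair no identifier with a name. The list was chosen with earlier results of these data known, so its counts and median are a description. Of the 18, 9 passed the filter, 5 changed, 4 higher and 1 lower (26.1% of all tested genes changed, 12.4% higher and 13.7% lower), and the median log2 fold change was 0.59 over the 9, against 0.01 over all tested genes. Without Balilla-2x replicate 3, 2 of these loci were called. The highest was LOC_Os02g41954, with 166, 452 and 298 counts in Balilla-4x, against 32, 88 and 67 in Balilla-2x (log2 fold change 2.29 ± 0.42, SE; edgeR adjusted p = 0.00556). LOC_Os02g36974 rose by less, with 1356, 1560 and 1525 counts in Balilla-4x, against 1042, 1049 and 874 in Balilla-2x (0.59 ± 0.10; adjusted p = 0.00343). LOC_Os05g11810 and LOC_Os06g37300 were the other 2 higher loci (0.70 and 0.84). LOC_Os06g37300 is also counted among the neighbours of KO2 above. The lower one was LOC_Os01g59660, with 274, 331 and 297 counts in Balilla-4x, against 451, 400 and 427 in Balilla-2x (-0.49 ± 0.12; adjusted p = 0.0158). Of the 9 that were not tested, 2 had 0 counts in every library.

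**Figure D5:**
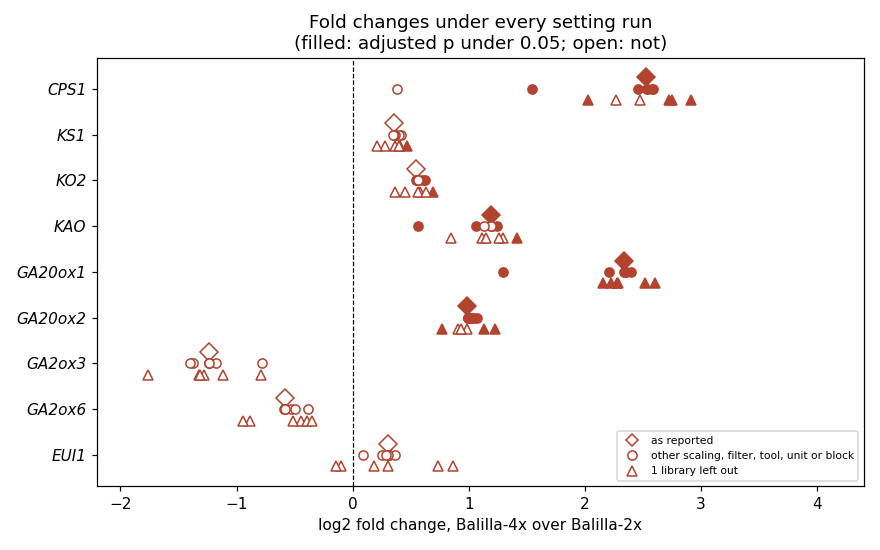
Log2 fold change of Balilla-4x over Balilla-2x (horizontal axis) for the 9 tested genes as reported (diamonds), under other scalings, filters, tools, units or a replicate block (circles) and with 1 library left out (triangles), filled where the adjusted p is under 0.05. GA20ox1 is filled at every setting, KAO and KO2 switch between filled and open, and GA2ox3 lies below 0 and open throughout.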

How the data were processed

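The authors deposited raw read counts per gene for all 6 libraries and an FPKM table for each library, per the file headers. The submitters' processing notes name HISAT2 2.1.0. Which counter, build, annotation and strand setting the authors used is not given in the sources used here. The deposited FPKM and counts imply 1 whole gene length (within 0.01 bases) for each of the 30986 genes with a count, so both hold the same measurement. The counts went through edgeR 4.0.16 (R 4.3.3): filterByExpr (about 10 counts in 3 libraries), TMM scaling, the two-sided quasi-likelihood F test, and Benjamini-Hochberg adjustment over 20976 genes. SE is the log2 fold change divided by the square root of F. CPM uses TMM-scaled sizes. The script was tested on simulated data. Intervals on counts cover counting error only. Alternatives used DESeq2 1.42.0 and limma 3.58.1 on log2(FPKM + 1) and log2(FPKM + 0.1). Names of the 10 genes come from the rule that chose them, and all 10 are described; other loci are named where they changed at least 2-fold among the 5 nearest tested loci on either side of a member. Loci named beyond this, from the pathway list and near KO2, were chosen after their values were seen. Members and lists were chosen with earlier results of these data known. RefSeq (ASM3414082v1) paired 0 of the 10 identifiers, so no sequences or coordinates are given.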

Additional observations from a re-analysis of the deposited data

How the results depend on the processing

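Over 7 other scalings, filters, tools, units and the replicate block, 3 to 5 members changed, against 4, and 0 were lower in each. CPS1, whose call adds no support, is counted wherever it passed. Over the same settings 4617 (replicate block) to 6067 (DESeq2) of all genes changed, in both directions. With 1 library left out the count of changed members ran from 1 (without Balilla-2x replicate 3) to 5 (without Balilla-4x replicate 1). It was 2 without Balilla-4x replicate 2 or 3. All changed genes then ran from 3029 to 6600 (the highest again without Balilla-4x replicate 1), against 5481, and the cause was not tested. Likewise, the other pathway loci ran from 2 to 5, against 5, and the neighbouring loci from 12 to 27, against 25. With 10 neighbours on each side, 51 of 180 were called, 26 higher and 25 lower. The excess of higher calls among the nearest 5 on each side, 16 against 9, was thus not seen in the wider window. Those 16 include LOC_Os02g17750 and LOC_Os06g37340, whose calls add no support. The GA20ox2 to GA20ox1 difference ran from -1.78 to -1.06 and the GA2ox6 to GA2ox3 difference from 0.51 to 1.26 with 1 library left out. The fitted value of EUI1 reached 0.87 without Balilla-2x replicate 2 but turned to -0.10 without Balilla-2x replicate 1 and to -0.14 without Balilla-4x replicate 2, and it was not called in any setting; the cause was not tested. For libraries with the same number, deviations from the line means correlated at 0.0019, -0.02 and -0.04 across genes. A factor shared by such libraries could still act on few genes, so these values cannot settle whether the numbers are pairs. The labels do not say. With the replicate block, 3 members, 4 other pathway loci, 18 neighbours and 4617 genes changed, KAO lost its call (adjusted p = 0.0837), and the ratio differences stayed at -1.31 and 0.99 by construction. Depth limits GA3ox2, EUI1 and CPS1 most, at 3 to 59 counts per line.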
